A study of Mus musculus with 3 samples.

Results

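Cytosolic ribosomal proteins are the protein components of the ribosomes that translate nuclear messages. The genes were taken by name: every row of the deposited gene tables whose symbol is Rpl, Rps or Rplp followed by a number and at most 1 lower-case letter, which gave 80 of 23234 genes. They comprise 46 genes of the large subunit (Rpl), 31 of the small subunit (Rps) and 3 of the stalk (Rplp0, Rplp1 and Rplp2). RNA was sequenced from 3 populations sorted from wild-type C57BL/6J mice aged 6 to 15 weeks, all of which had received 10 µg of lipopolysaccharide (LPS, part of the outer membrane of certain bacteria and a trigger of inflammation) in 10 µL of PBS into the nostrils. Nasal double-positive cells (DP) were CD45+Ly6G+SiglecF+ cells of the nose taken 2 days after LPS. Nasal neutrophils were CD45+Ly6G+SiglecF- cells of the nose taken 1 day after LPS. Blood neutrophils were CD45+Ly6G+SiglecF- cells of peripheral blood, also taken 1 day after LPS. Each group was a single library (1 per group) and the labels do not give the number of mice behind it, so the differences below carry neither replicate errors nor tests, and day, gate and tissue cannot be told apart where they differ together.

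A ribosome holds a single copy of nearly every one of these proteins, the stalk proteins P1 and P2 being the main exception, and cells keep their production in balance with ribosomal RNA. Most of the messages begin with a terminal oligopyrimidine tract (TOP), a run of C and T letters at the very start through which the kinase mTOR and the protein Larp1 adjust their translation together. Neutrophils are short-lived cells that make much of their granule protein in the bone marrow, before they enter the blood. In bulk RNA, fewer cells of a type and less RNA per cell cannot be told apart.

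The start regions are shown here because the TOP tract is what these genes are known to share and the name rule did not use it. RefSeq start regions of GRCm38.p6, 250 bases before to 50 after an annotated start, were held for 59 of the 80 members, and the remaining members are described by level alone. Each sequence below runs from 60 bases before to 20 bases after the first listed start, 5′ to 3′ on the transcribed strand, with capitals marking the longest unbroken run of C and T where it was at least 8 bases and touched the 20 bases on either side of the start (the one farther upstream where 2 runs were equally long, as in Rps27l). Those shown are the 4 members with a start region that stood highest in DP over nasal neutrophils (Rps21, Rpl38, Rps27l, Rpl35), the 4 that stood lowest (Rpl10, Rpl7a, Rpl13, Rpl9), Rps27, which was listed at 0 in 2 libraries, and Rps6, whose product is the classical substrate of S6 kinase.
Rps21, chr2:180257319-180257398, plus strand: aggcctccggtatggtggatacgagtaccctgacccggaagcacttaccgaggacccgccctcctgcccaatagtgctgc
Rpl38, chr11:114668520-114668599, plus strand: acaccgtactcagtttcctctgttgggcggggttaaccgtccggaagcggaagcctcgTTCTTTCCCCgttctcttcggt
Rps27l, chr9:66946026-66946105, plus strand: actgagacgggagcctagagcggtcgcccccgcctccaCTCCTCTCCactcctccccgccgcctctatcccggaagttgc
Rpl35, chr2:39005112-39005191, minus strand: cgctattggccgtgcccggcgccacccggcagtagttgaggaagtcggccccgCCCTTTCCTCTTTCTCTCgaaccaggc
Rpl10, chrX:74270756-74270835, plus strand: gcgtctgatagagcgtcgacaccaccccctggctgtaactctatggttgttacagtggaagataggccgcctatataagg
Rpl7a, chr2:26910747-26910826, plus strand: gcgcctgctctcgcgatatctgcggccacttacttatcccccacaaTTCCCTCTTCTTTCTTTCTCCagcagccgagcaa
Rpl13, chr8:123102290-123102369, plus strand: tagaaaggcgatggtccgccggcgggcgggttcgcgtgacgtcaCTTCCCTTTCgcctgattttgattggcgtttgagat
Rpl9, chr5:65391412-65391491, minus strand: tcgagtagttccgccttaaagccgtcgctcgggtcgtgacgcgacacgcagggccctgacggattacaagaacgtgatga
Rps27, chr3:90213629-90213708, minus strand: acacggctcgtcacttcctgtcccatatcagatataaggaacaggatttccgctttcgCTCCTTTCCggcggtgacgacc
Rps6, chr4:86857348-86857427, minus strand: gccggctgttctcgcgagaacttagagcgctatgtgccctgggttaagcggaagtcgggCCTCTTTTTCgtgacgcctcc

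Runs of at least 8 pyrimidines at the annotated start were more common among these genes than elsewhere, and they did not separate members that stood high from members that stood low. Such a run was found in 29 of 59 members (49.2%), in 19.2% of 7496 other tested genes and in 20.8% of all 27025 gene starts of the table. On the opposite strand the shares were 10.2%, 21.3% and 22.8%. The run was 18 bases long in Rpl35 and 21 in Rpl7a, which lay at opposite ends of the comparison of DP with nasal neutrophils, and no run of 8 was present in Rps21 or Rpl10. The ETS core CGGAAG, searched on both strands of the 300 bases, was present in 40 of 59 members (67.8%), in 32.6% of other tested genes and in 17.2% of all gene starts, and 21 members held both it and a run. The GC box GGGCGG was present in 57.6% of members, 62.1% of other tested genes and 35.9% of all gene starts, and the TATA box TATAAA in 8.47%, 8.30% and 14.2%. Members with a run that passed the filter given below (28 genes) had a median log2 ratio of 0.93 in DP over nasal neutrophils, and those without (29 genes) one of 1.04. A match is a property of the letters in this window, and an annotated start that lies away from the true one would hide a run.

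The 3 libraries were unlike in depth and in what else they held. The spacing of low values gave 0.0184 FPKM for a single fragment in a 1-kb transcript in DP, 0.078 FPKM in nasal and 0.0186 FPKM in blood neutrophils, so the nasal neutrophil library was the shallowest. The values are in FPKM, fragments scaled by transcript length and by the number of mapped fragments. A 1-kb transcript at 1 FPKM thus gave about 54, 13 and 54 fragments. The scaling is meant to let levels of different genes be set side by side. For many members the level is uncertain, and in nasal neutrophils it followed coding length, as given below. Whether the nasal neutrophil library, whose sample code does not follow on from those of the others, was made separately is not stated, so library preparation and group cannot be told apart there. Siglec5, the name of the SiglecF gene in the tables, stood at 168 FPKM in DP, 9.92 in nasal and 18.7 in blood neutrophils, and 8 neutrophil markers summed to 12624, 53372 and 77284 FPKM, with S100a8 listed at 0 in blood. Ly6g has no row of that name and was not analysed here. Of 10 olfactory and epithelial markers, 0 were listed at 0 in DP, 0 in nasal and 6 in blood neutrophils, with sums of 1238, 622 and 1.17 FPKM. The 5 macrophage markers with a row summed to 72.3 and 167 FPKM in the nasal libraries and were all listed at 0 in blood, 5 B and plasma cell markers summed to 4.75, 43.5 and 63.4, and 5 red cell markers to 14.7, 12.2 and 3448. Markers of T and NK cells (14.1, 5.38 and 11.9 FPKM), eosinophils (3.21, 13.8 and 6.86) and stroma and endothelium (27.7, 21.5 and 5.91) were low in each library. Whether RNA of such cells contributed to the ribosomal protein values below was not tested.

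Ribosomal protein messages took the smallest part of the library in nasal neutrophils, and a larger part in DP than in blood neutrophils. The 80 genes summed to 14827 FPKM in DP, 6948 in nasal and 11244 in blood neutrophils, which was 2.33%, 1.12% and 1.70% of the FPKM sum of each library. With the 100 most abundant other genes of each library left out of the sum, the shares were 3.74% in DP, 2.40% in nasal and 3.92% in blood neutrophils, so the order of DP and blood rests on those genes. The median member stood at 132 FPKM in DP, 61.1 in nasal and 81.1 in blood neutrophils, against 8.87, 5.79 and 3.47 FPKM for all genes that passed the filter. There were 52 members at 100 FPKM or more in DP, 25 in nasal and 35 in blood neutrophils. Of the 77 members with 3 different values, 56 were highest in DP, 4 in nasal and 17 in blood neutrophils, while 54 were lowest in nasal neutrophils. The remaining 3 members, Rps27, Rpl39l and Rpl10l, were each listed at 0 in 2 libraries. Higher values in DP were also common among the 10719 genes that passed the filter. Of these, 7426 stood higher in DP than in nasal and 7970 higher in DP than in blood neutrophils, against 72 and 58 of 78 members. Lower in nasal than in blood neutrophils were 4012 of all these genes and 55 of the 78 members. The library of highest and of lowest value was not counted for other genes.

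**Figure D1:**
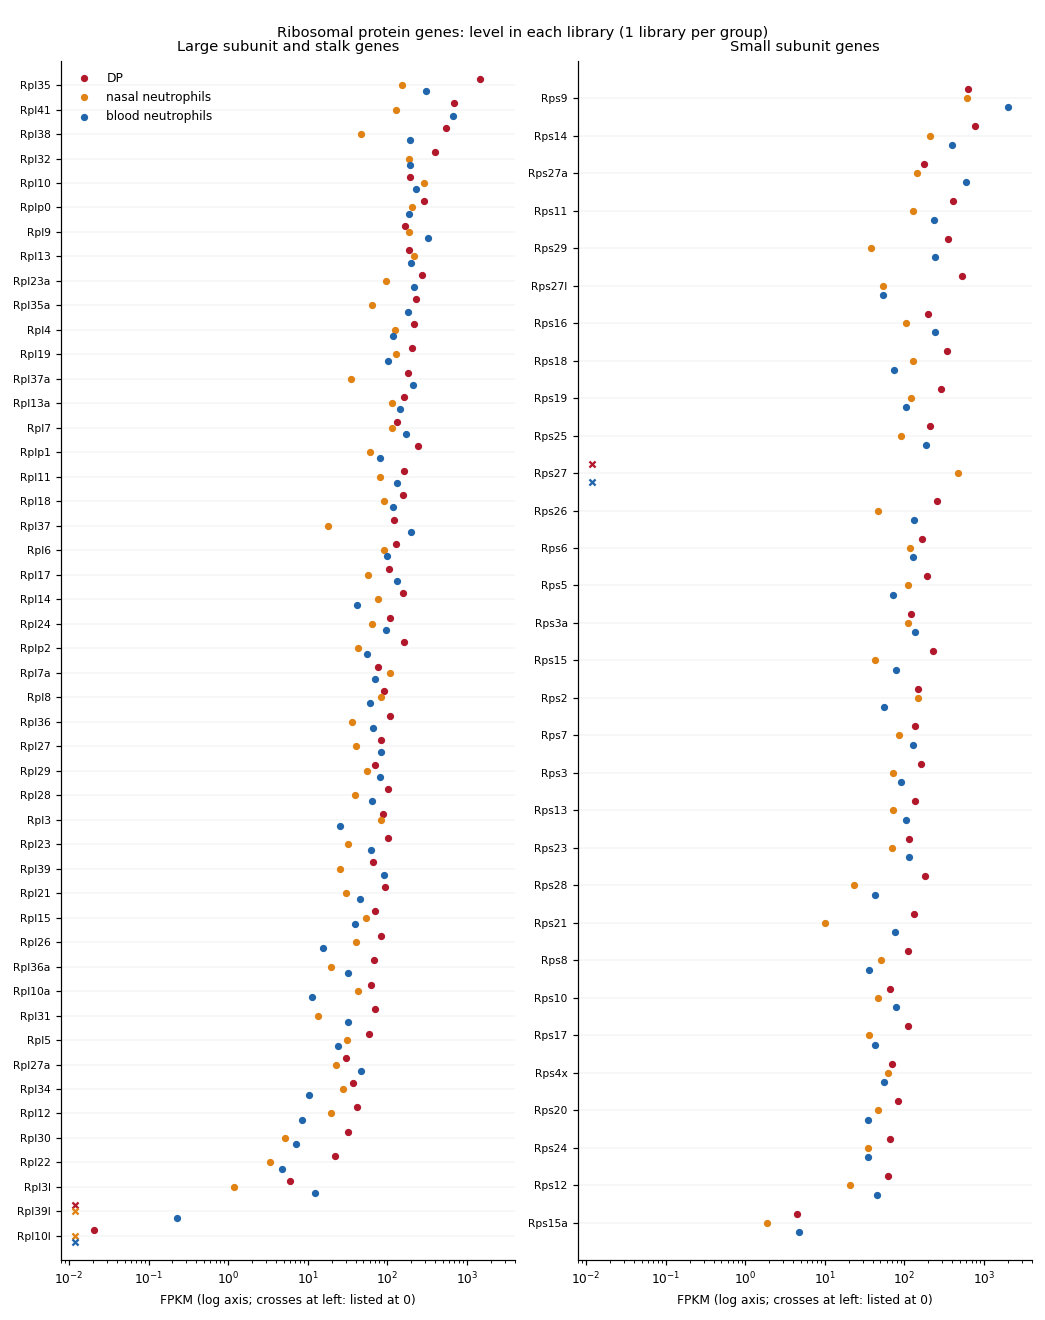
Level of ribosomal protein genes (all members but 1 that is not reported here) in DP, nasal neutrophils and blood neutrophils, in FPKM on a log axis, with genes ordered by their mean and crosses for values listed at 0. Each point is 1 library; most genes are lowest in nasal neutrophils, and Rps15a lies far to the left of the other small-subunit genes in every library, apart from the crosses of Rps27.

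Although ribosomes hold these proteins in near-equal number, their messages did not stand at equal levels within a library. In DP 52 of 80 members lay within 2-fold of the member median and 67 within 4-fold. In nasal neutrophils 46 and 69 did, and in blood neutrophils 40 and 65. The order of members was partly shared: Spearman's rho over the 77 members above 0 in both libraries was 0.69 between DP and nasal neutrophils, 0.69 between nasal and blood neutrophils and 0.76 between DP and blood neutrophils, a description over genes that share their libraries.

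The highest means belonged to genes of both subunits. Rps9, whose product belongs to the body of the small subunit and is placed early in its assembly, stood at 624 FPKM in DP, 610.2 in nasal and 1986 in blood neutrophils, so that it alone held 17.7% of the member sum in blood. Rpl35, a protein at the exit of the large subunit's peptide tunnel, had 1478 FPKM in DP, 155 in nasal and 309.7 in blood neutrophils. Rpl41, which encodes the shortest ribosomal protein, stood at 692, 129.7 and 663 FPKM. These 3 genes peaked in different libraries, Rps9 in blood, Rpl35 in DP and Rpl41 almost equally in DP and blood. Rps14 stood at 779 FPKM in DP, 211 in nasal and 403 in blood neutrophils. Rps27a, which encodes ubiquitin fused to a small-subunit protein, stood at 177, 142 and 597 FPKM, and Rpl38, whose loss alters the translation of homeobox messages in mice, at 548, 47.4 and 196. Rps27a was highest in blood and Rpl38 in DP.

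At the other end were paralogs and a few core genes. Rps15a, a core gene of the small subunit, had 4.53 FPKM in DP, 1.87 in nasal and 4.73 in blood neutrophils, against small-subunit medians of 161, 71.5 and 78.5. In nasal neutrophils the Rps15a value rests on about 15 fragments. Rpl22, a large-subunit gene needed for T cell development in mice, stood at 22.1, 3.37 and 4.78 FPKM, and Rpl30 at 32.4, 5.18 and 7.21. Both were highest in DP and lowest in nasal neutrophils, where about 20 fragments lie behind the Rpl22 value and about 38 behind that of Rpl30.

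Ribosomal protein genes have many processed pseudogenes, copies of the spliced message inserted elsewhere in the genome, and reads may be divided among them. In GENCODE M21, 73 of the 80 members had at least 1 annotated pseudogene matching 80% or more of their coding sequence at 95% identity or more, with a median of 5 copies and a maximum of 56 for Rpl21. The 15 tested members with 10 or more copies had a median of 93.6 FPKM in DP, 55.0 in nasal and 56.3 in blood neutrophils. The 44 with 3 to 9 copies had medians of 161, 83.3 and 105 FPKM, and the 19 with 0 to 2 copies had medians of 157, 54.1 and 72.7 FPKM. Level thus did not fall steadily with the number of copies. Spearman's rho between the 2 was -0.23 in DP (77 members), -0.03 in nasal (78 members) and -0.02 in blood neutrophils (77 members). How the authors' counting treated reads with several matches is not given in the sources used here, so the level of each member with such copies is uncertain.

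The comparison of DP with nasal neutrophils sets SiglecF-positive against SiglecF-negative Ly6G+ cells of the nose, which also differ in the day after LPS. Most ribosomal protein genes stood higher in DP, and those of the shortest proteins stood highest. The filter kept genes averaging at least 1 FPKM across the 3 libraries, called tested genes here (10719 genes, 78 of the 80 members; Rpl10l and Rpl39l did not pass), and ratios are log2 of FPKM + 1, which understates low genes. The median log2 ratio of the tested members was 1.00, against 0.57 over all tested genes, and 39 of 78 members stood at least 2-fold higher in DP against 33.6% of all tested genes. In the other direction 1 member (Rps27, listed at 0 in DP) stood at least 2-fold lower, against 11.3% of all tested genes. At 4-fold the counts were 14 higher and 1 lower, against 8.42% and 3.62% of all tested genes. With ratios centred on the median of all tested genes the counts at 2-fold were 24 higher and 3 lower, and with upper-quartile scaling also 24 and 3. The shares above are for ratios as reported, and those of all tested genes under these scalings were not computed. With ratios corrected for transcript length the median was 0.56, close to that of all tested genes.

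By subunit, the median log2 ratio in DP over nasal neutrophils was 1.00 for 44 large-subunit genes, 0.95 for 31 small-subunit genes and 1.87 for the 3 stalk genes. The stalk binds the elongation factors and starts their GTP hydrolysis. Its anchor Rplp0 had 294 FPKM in DP and 208 in the nasal neutrophils (188 in blood). Rplp1 stood at 242 against 60.2 FPKM (81.0 in blood), and Rplp2 at 161 against 43.3 (55.4 in blood). The long anchor message was thus less different between the nasal libraries than those of its short partners.

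The 6 members that stood highest in DP over nasal neutrophils all encode short proteins. Rps21, a small-subunit protein, had 132 FPKM in DP and 10.2 in the nasal neutrophils, a log2 ratio of 3.58, with about 51 fragments behind the lower value. Rpl38 followed at 548 against 47.4 FPKM (3.50) and Rps27l, a paralog of Rps27 that is induced by p53, at 525.1 against 54.1 (3.26). Coding sequences of these 3 genes measure 249, 210 and 252 nt. Rpl35 had 1478 against 155 FPKM (3.24), Rps29 had 357 against 38.2 (3.19) and Rps28 had 181 against 23.1 (2.92). Rps29 and Rps28 are small-subunit proteins mutated in some families with Diamond-Blackfan anaemia, a human failure of red cell production.

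The members that stood lowest in DP over nasal neutrophils had longer coding sequences and differed little. Rpl10, which joins the large subunit late in its assembly, had 192 FPKM in DP and 286 in the nasal neutrophils (log2 ratio -0.57). Rpl7a stood at 75.9 against 107 FPKM (-0.50), Rpl13 at 186 against 220.3 (-0.24) and Rpl9 at 168 against 188 (-0.16). Rps2 and Rps9 were near equal, at 147 against 147 FPKM and 624 against 610.2 FPKM. The 5 members above 0 in both libraries that stood below equality were Rpl10, Rpl7a, Rpl13, Rpl9 and Rps2.

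**Figure D2:**
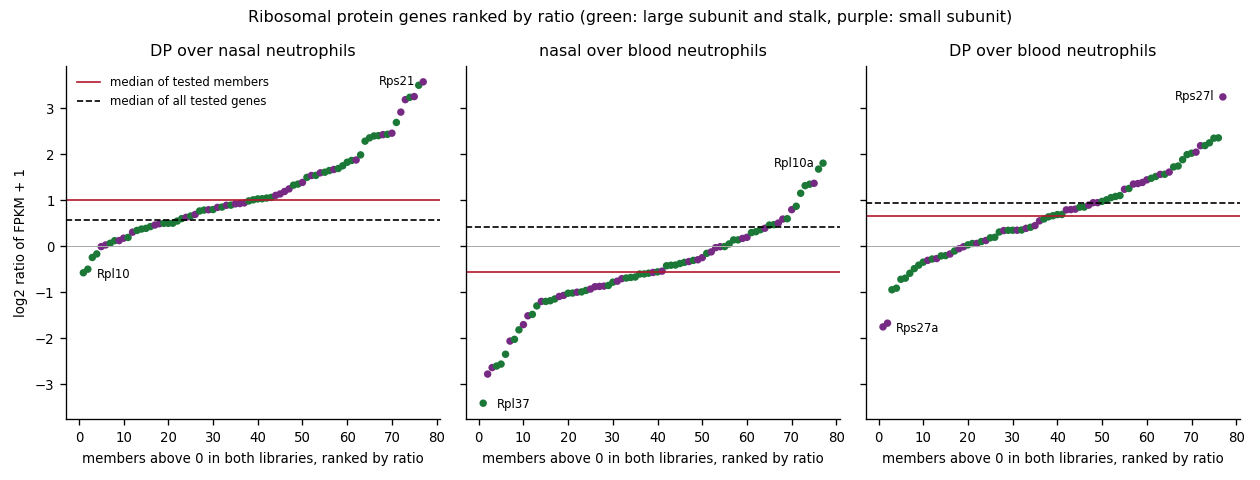
Log2 ratio of FPKM + 1 for the members above 0 in both libraries of each comparison, ranked from lowest to highest, with the median of tested members (solid line) and of all tested genes (dashed line). The member median lies above that of all tested genes in DP over nasal neutrophils (1.00 against 0.57) and below it in the other comparisons (-0.56 against 0.41, and 0.65 against 0.95).

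The ratio followed coding length among the members. Over the 77 members above 0 in both libraries, Spearman's rho between coding length and the log2 ratio in DP over nasal neutrophils was -0.74, a description over genes that share 2 libraries. The 10 tested members with coding sequences of up to 300 nt had a median ratio of 2.81, the 16 of 300 to 400 nt one of 1.79, the 22 of 400 to 500 nt one of 1.06, the 16 of 500 to 700 nt one of 0.62 and the 14 of 700 to 1300 nt one of 0.33. Other tested genes in the same classes had medians of 1.48, 1.13, 1.03, 0.85 and 0.70. Members of up to 400 nt thus stood above other genes of like length, and members above 500 nt below them. The same classes of members had median levels of 182, 77.0, 112, 164 and 125 FPKM in DP and 36.5, 35.4, 59.3, 101 and 99.0 FPKM in nasal neutrophils. In blood neutrophils the medians were 144, 40.3, 82.1, 130.2 and 81.0 FPKM. The level itself followed coding length in nasal neutrophils (rho 0.42, 78 members) and not in DP (-0.11, 77 members) or blood (-0.02, 77 members). Depth also differed between these libraries, and its part in the pattern was not tested.

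**Figure D3:**
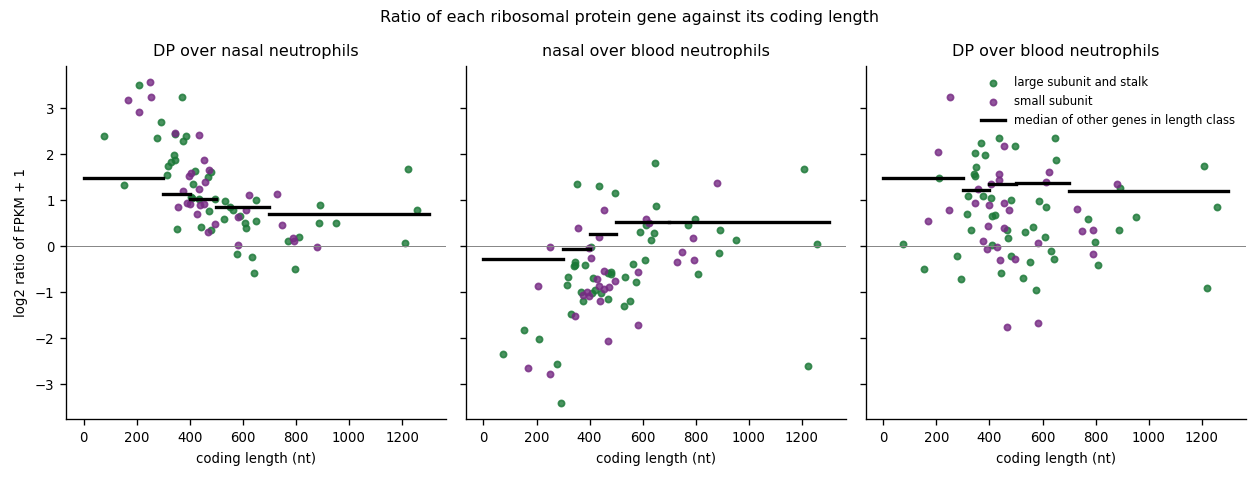
Log2 ratio of FPKM + 1 of each member against the length of its coding sequence in nt, for the 3 comparisons, with large-subunit and stalk genes in green and small-subunit genes in purple. Black bars are medians of the other tested genes in the same length class; in DP over nasal neutrophils members of up to 300 nt have a median of 2.81 and those of 700 to 1300 nt one of 0.33.

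Nasal and blood neutrophils share the gate and the day and differ in where they were collected. Their libraries also differ in depth, and whether the nasal one was made separately is not stated, as given above. The part of depth and preparation in the results below was not tested. Most ribosomal protein genes stood lower in the nose while the typical gene stood higher. The median log2 ratio of the 78 tested members was -0.56, against 0.41 over all tested genes. With a filter of 5 FPKM the medians were -0.55 and 0.13, and without a filter -0.55 and 0.06. With 5 FPKM added instead of 1 before taking logs they were -0.52 and 0.19. The directions held, and the distance from the typical gene rests on these settings. At least 2-fold lower in nasal neutrophils were 21 members (26.9%), against 12.8% of all tested genes, and at least 2-fold higher were 7 members, against 33.5%. At 4-fold 8 members were lower and 1 (Rps27) higher, against 3.23% and 13.1% of all tested genes. Centred on the median of all tested genes, 37 were lower and 3 higher at 2-fold. The shares above are for ratios as reported, and those of all tested genes after centring were not computed. With ratios corrected for transcript length the median was -0.20, still below that of all tested genes. Olfactory and epithelial markers (622 FPKM in nasal against 1.17 in blood neutrophils), macrophage markers (167 against 0) and red cell markers (12.2 against 3448) also differed between these libraries, and their part in the result was not tested.

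Both subunits shared this difference. The median was -0.59 for the large subunit, -0.57 for the small subunit and -0.35 for the stalk. Rpl37, a large-subunit protein with a zinc finger, stood at 18.1 FPKM in nasal neutrophils against 202 in blood neutrophils (log2 ratio -3.41). Rps21 stood at 10.2 against 75.5 FPKM (-2.78) and Rps29 at 38.2 against 243 (-2.64). These are again genes of short proteins. Rpl3l, the exception with a long coding sequence, stood at 1.19 against 12.3 FPKM (-2.60), with about 21 fragments behind the nasal value. Rpl37a, another zinc-finger protein of the large subunit, stood at 34.8 against 210.2 FPKM (-2.56) and Rpl41 at 129.7 against 663 (-2.35). Spearman's rho between coding length and this ratio was 0.52 over 77 members, and the 10 shortest had a median of -2.18 against -0.27 for 274 other genes of that length.

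A smaller set of members stood higher in nasal than in blood neutrophils. Rpl10a, a protein of the mobile stalk at the ribosome's exit site, stood at 42.7 against 11.5 FPKM (log2 ratio 1.81). Rpl3, which lies beside the catalytic centre, stood at 84.4 against 25.6 FPKM (1.68) and Rps2 at 147 against 56.3 (1.37). Rpl34 (28.1 against 10.4 FPKM), Rpl26 (40.6 against 15.7) and Rpl12 (19.9 against 8.39) followed. Apart from Rps27, these 6 genes were the members at least 2-fold higher in the nose. The pseudogene row Rpl34-ps1 went the other way from Rpl34, at 53.8 FPKM in nasal against 237 in blood neutrophils. How reads were divided between the 2 rows was not tested, so the direction for Rpl34 is uncertain.

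DP against blood neutrophils differ in tissue, day and gate at once. The members stood higher in DP, though by less than the typical gene at the main settings. Their median log2 ratio was 0.65, against 0.95 over all tested genes. With 5 FPKM added instead of 1 before taking logs, the medians were 0.63 and 0.50. Without a filter they were 0.62 and 0.16, so the order of members and typical gene rests on these settings. At least 2-fold higher in DP were 27 of 78 members (34.6%), against 48.6% of all tested genes, and 2 were at least 2-fold lower, against 9.49%. At 4-fold 8 members were higher, against 24.0% of all tested genes, and 0 lower, against 3.57%. Centred on the median of all tested genes the member median was -0.30, with 9 higher and 18 lower at 2-fold, so the direction rests on the scaling. The shares of all tested genes after centring were not computed. Coding length was only weakly related to this ratio (rho -0.17 over 77 members).

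Rps27l stood furthest above blood, at 525.1 FPKM in DP against 54.3 in blood neutrophils (log2 ratio 3.25). Rpl10a stood at 63.0 against 11.5 FPKM (2.36), Rpl26 at 84.1 against 15.7 (2.35) and Rpl12 at 41.9 against 8.39 (2.19). Those 3 genes were also higher in nasal than in blood neutrophils, as given above. Rpl35 stood at 1478 against 309.7 FPKM (2.25) and Rps18 at 341 against 73.9 (2.19). The 2 members at least 2-fold lower in DP were Rps27a, at 177 against 597 FPKM (-1.75), and Rps9, at 624 against 1986 (-1.67). Rpl9 (168 against 323 FPKM) and Rpl37 (122 against 202) were lower by less than 2-fold on this scale.

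Rps27 and its paralog Rps27l gave values that cannot be read as a plain change in level. Rps27 was listed at 0 in DP, at 477 FPKM in nasal neutrophils and at 0 in blood neutrophils. Rps27l stood at 525.1, 54.1 and 54.3 FPKM. An exact 0 for a core ribosomal protein may be a failed estimate, so no fold is given for Rps27. It was 1 of 5 genes listed at 0 in both DP and blood while at 100 FPKM or more in nasal neutrophils. The 252-nt coding sequences of the pair are 76.2% identical, and Rps27 has 3 near-identical pseudogenes against 0 for Rps27l.

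The other paralogs were low or differed from their partners. Rpl3l, which takes the place of Rpl3 in heart and skeletal muscle, stood at 6.08 FPKM in DP, 1.19 in nasal and 12.3 in blood neutrophils, while Rpl3 stood at 88.4, 84.4 and 25.6. The pair was ordered differently over the libraries, the paralog being highest and its partner lowest in blood. Rpl10l, a testis paralog, was at 0.021 FPKM in DP and listed at 0 in the other libraries, and Rpl39l, of male germ cells, was listed at 0 in both nasal libraries and at 0.23 FPKM in blood. Their partners Rpl10 (192, 286 and 233 FPKM) and Rpl39 (65.8, 25.6 and 92.5) were well detected. The coding sequences are 73.1% identical between Rpl3l and Rpl3, 84.7% between Rpl10l and Rpl10 and 85.0% between Rpl39l and Rpl39.

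Paralogs and ribosomal proteins that the name rule misses were read beside the members. Rpl36al, 87.7% identical to Rpl36a over its coding sequence, stood at 196 FPKM in DP, 36.8 in nasal and 14.6 in blood neutrophils, while Rpl36a stood at 69.1, 19.8 and 32.1. The 2 genes thus stood in opposite order between nasal and blood neutrophils. Rpl22l1 stood at 27.6, 19.7 and 11.8 FPKM beside the Rpl22 values given above, and Rpl7l1 at 56.7, 21.3 and 34.6 beside 131, 115 and 175 for Rpl7. Fau, a ubiquitin-like protein fused to a small-subunit protein, stood at 598 FPKM in DP, 290.4 in nasal and 1291 in blood neutrophils. Fau and Rps27a, both fusion genes, were lowest in nasal and highest in blood neutrophils. Rpsa and Gnb2l1, whose products sit on the head of the small subunit, were both lowest in blood, at 30.7, 23.8 and 10.9 FPKM for Rpsa and 63.3, 37.2 and 21.6 for Gnb2l1.

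The members chosen for a known further role, Rpl5, Rpl11, Rps6, Rps3, Rpl13a and Rps19, each had their highest value in DP. So did most members, with 56 highest in DP as given above, and the trait is not particular to the chosen genes. Rpl5 and Rpl11 bind the 5S RNA and, when free, hold back Mdm2, the ligase that degrades p53. Rpl5 stood at 58.5 FPKM in DP, 31.0 in nasal and 23.9 in blood neutrophils. Rpl11 stood at 164, 82.2 and 132 FPKM, so both were highest in DP and about 2-fold above nasal neutrophils. Rps6 stood at 165, 119 and 129.7 FPKM, Rps3, which can join NF-kappaB complexes in human cells, at 161, 72.6 and 91.5, and Rpl13a, part of an interferon-regulated translation inhibitor in human monocytes, at 164, 116 and 143. Rps19, the gene most often mutated in Diamond-Blackfan anaemia, stood at 289, 121 and 106 FPKM. Of 15 members mutated in that anaemia, 8 stood at least 2-fold higher and 1 (Rps27) lower in DP than in nasal neutrophils, with a median of 1.03, against 33.6% and 11.3% of all tested genes and their median of 0.57. In nasal over blood neutrophils the same 15 genes had a median of -0.57, with 2 at least 2-fold higher and 4 lower, against 33.5% and 12.8% of all tested genes. In DP over blood neutrophils they had a median of 0.85, with 5 higher (33.3%, below the 48.6% of all tested genes) and 0 lower (against 9.49%).

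The lists of the translation machinery that follow are read against all tested genes. Of these, 33.6% were at least 2-fold higher and 11.3% lower in DP than in nasal neutrophils, 33.5% higher and 12.8% lower in nasal than in blood neutrophils, and 48.6% higher and 9.49% lower in DP than in blood, with medians of 0.57, 0.41 and 0.95.

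Factors that build ribosomes stood higher in nasal than in blood neutrophils, as the typical gene did and the ribosomal proteins did not. Of 47 tested genes of ribosome assembly and rRNA processing, 32 were at least 2-fold higher and 1 lower in DP than in nasal neutrophils (68.1% higher, median log2 ratio 1.19). In nasal over blood neutrophils 22 were higher and 1 lower (46.8% higher, against 33.5% of all tested genes), with a median of 0.94, against 0.41 for all tested genes and -0.56 for the ribosomal proteins. In DP over blood 39 were higher and 1 lower (against 48.6% of all tested genes higher, median 2.26). The nucleolar proteins Nop10, at 125 FPKM in DP, 14.7 in nasal and 13.2 in blood neutrophils, and Nhp2, at 114, 14.3 and 6.85, guide the modification of ribosomal RNA. Nop16, a large-subunit assembly factor, stood at 37.8, 4.87 and 0.52 FPKM and Pno1, which helps to mature the small subunit, at 47.9, 12.4 and 0.51. The methyltransferase gene Fbl stood at 12.3, 11.4 and 1.07 FPKM. All 5 stood below the median ribosomal protein of the same library, and 3 of them were near or below 1 FPKM in blood.

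Among 17 tested genes of RNA polymerase I and its factors, which make ribosomal RNA, 13 were at least 2-fold higher and 0 lower in DP than in nasal neutrophils (76.5% higher, against 33.6% of all tested genes, median 1.52). In nasal over blood neutrophils 2 were higher (11.8%, against 33.5%) and 3 lower (17.6%, against 12.8%), with a median of -0.26. In DP over blood 10 were higher (58.8%, against 48.6%) and 2 lower (11.8%, against 9.49%), with a median of 1.54. The shared polymerase subunit gene Polr2k had 241 FPKM in DP, 22.7 in nasal and 49.9 in blood neutrophils, and Polr2l had 49.8, 4.86 and 12.6. Rrn3, the initiation factor of polymerase I, stood at 21.5, 4.35 and 0.42 FPKM and Twistnb, a subunit of that polymerase, at 13.0, 3.55 and 28.7. Polr2k, Polr2l and Twistnb were lowest in nasal neutrophils and Rrn3 lowest in blood.

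Most initiation and elongation factor genes stood at least 2-fold higher in DP than in nasal neutrophils. Of 37 initiation factor genes, 21 were at least 2-fold higher and 0 lower in DP than in nasal neutrophils (56.8% higher, against 33.6% of all tested genes, median 1.08). Between nasal and blood neutrophils 9 were higher in the nose (24.3%, below the 33.5% of all tested genes) and 2 lower (median 0.20), and in DP over blood 24 were higher (64.9%, against 48.6%) and 1 lower (median 1.39). Eif3b, a scaffold subunit of the initiation factor that loads the small subunit, stood at 62.0 FPKM in DP, 11.0 in nasal and 0.15 in blood neutrophils. Eif6, which keeps free large subunits from joining, stood at 177, 37.1 and 27.6 FPKM. Of 11 elongation and release factor genes, 6 were higher and 1 lower in DP than in nasal neutrophils (54.5% higher, median 1.22). Nasal over blood neutrophils gave 3 higher and 1 lower (27.3% higher, against 33.5%, median 0.31), and in DP over blood 6 were higher and 0 lower (54.5% higher, against 48.6%, median 1.29). Abce1, which splits ribosomes for reuse, stood at 18.3, 2.80 and 1.07 FPKM, and the release factor gene Etf1 at 20.9, 46.5 and 6.81.

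Other messages with a TOP tract had shares of genes at least 2-fold higher that were near or below those of all tested genes. Of 17 such genes, 5 were at least 2-fold higher and 1 lower in DP than in nasal neutrophils (29.4% higher, near the 33.6% of all tested genes, median 0.31). Set against blood, nasal neutrophils had 4 higher and 0 lower (23.5% higher, against 33.5%, median 0.20), and in DP over blood 5 were higher and 1 lower (29.4% higher, against 48.6%, median 0.09). Tpt1, one of the most abundant TOP messages, stood at 289 FPKM in DP, 314 in nasal and 114 in blood neutrophils. Vim, which encodes the filament protein vimentin, stood at 19.8, 103 and 162 FPKM. The nucleolar chaperone gene Npm1 stood at 50.8, 21.7 and 8.83 FPKM. Tpt1 and Npm1 were thus lowest in blood and Vim lowest in DP. Many of the 17 genes are also counted in the initiation and elongation lists above, so these lists are not separate.

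Regulators upstream of ribosomal protein translation showed no common direction. Of 16 tested genes of the mTOR and TOP regulator list, 4 were at least 2-fold higher and 3 lower in DP than in nasal neutrophils (a share below the 33.6% higher among all tested genes, median -0.03). Nasal over blood neutrophils gave 4 higher and 2 lower (against 33.5% of all tested genes higher, median 0.32), and in DP over blood 5 were higher and 2 lower (31.2% higher, against 48.6%, median 0.74). Ddit4, a stress-induced inhibitor of mTOR, stood at 4.33 FPKM in DP, 66.2 in nasal and 0.91 in blood neutrophils. Rheb, the direct activator of mTOR, stood at 522 FPKM in DP, 75.2 in nasal and 87.3 in blood neutrophils. The S6 kinase gene Rps6kb1 had 9.55, 2.54 and 7.24 FPKM. Ddit4 was highest and both Rheb and Rps6kb1 lowest in nasal neutrophils. The other genes of largest ratio in this list were Eif4ebp1 (243, 150 and 370 FPKM), Deptor (4.08, 1.22 and 0.46) and Sesn2 (11.5, 48.2 and 38.1). Eif4ebp1 was lowest and Sesn2 highest in nasal neutrophils, and Deptor was highest in DP. Activity of mTOR was not measured. Of 12 tested genes of ribosome rescue, 4 were higher and 2 lower in DP than in nasal neutrophils (33.3% higher, about the share of all tested genes, median 0.44). In nasal over blood neutrophils 4 were higher and 1 lower (33.3% higher, against 33.5%, median 0.64), and in DP over blood 5 were higher and 0 lower (41.7% higher, below 48.6%, median 0.63). The rescue factor gene Hbs1l stood at 55.4, 15.2 and 11.4 FPKM.

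**Figure D4:**
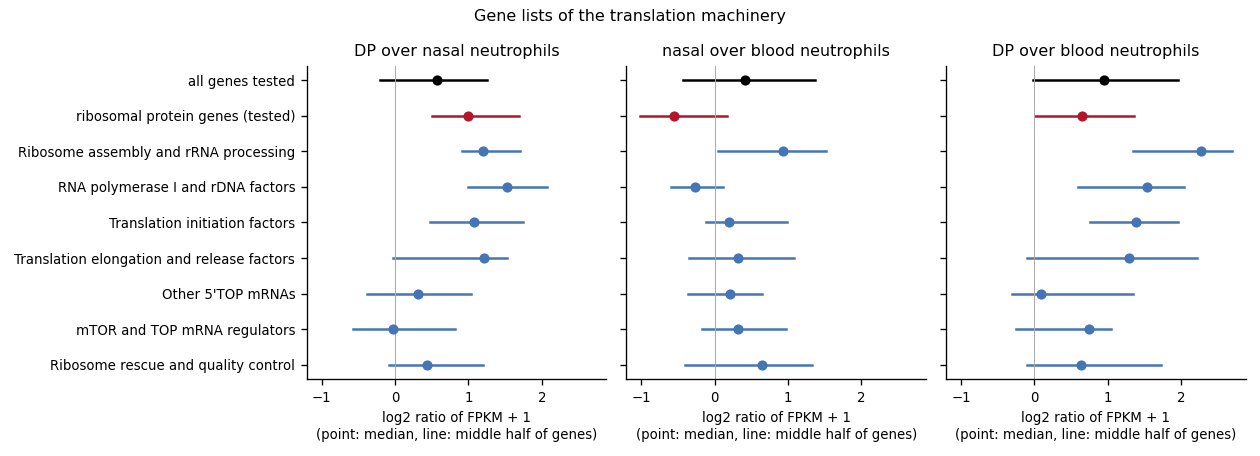
Median (point) and middle part of genes from the lower to the upper quartile (line) of the log2 ratio of FPKM + 1 for the ribosomal proteins and 7 lists of the translation machinery, beside all tested genes, in the 3 comparisons. In nasal over blood neutrophils the ribosomal proteins lie at -0.56 and the assembly factors at 0.94.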

How the data were processed

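Gene tables of 3 libraries were used as deposited by the authors, in FPKM (fragments scaled by transcript length and depth). The headers name only sample codes, so the unit rests on the values and on the submitters' processing notes, which list TopHat2 2.0.8, Bowtie2 2.1.0, Cufflinks 2.1.1 and mm9 without settings. Values below 1e-06 FPKM were set to 0. Genes with a mean of 1 FPKM or more were described by log2(FPKM + 1) differences, with 2-fold and 4-fold counts. With 1 library per group no test was possible. Depth was read from steps between low values of single-transcript genes over 1500 nt (tolerance 6%), so it is approximate. Lengths and pseudogene copies came from GENCODE M21 by symbol, for another build than mm9, and 93.6% of tested genes had a coding length. The members and gene lists were chosen with earlier results of these data known. Genes named follow a rule: the 6 highest and 6 lowest members by mean and by ratio, members listed at 0, stalk, paralog and 5S genes, members with further roles, and of each other list some of the 3 genes of largest ratio in each comparison. The pseudogene rows were chosen after their values were seen. Noc2l, Znf598, Zak, Jchain and Adgre1 had no row of that name and were not analysed here. Values of 2 further genes are not reported here, though counts and medians include them. Python 3.11.15 with pandas 2.3.3 and SciPy 1.17.1 was used, and the ratio and count steps were tested on simulated data. Alternatives are given in the closing section.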

Additional observations from a re-analysis of the deposited data

How the results depend on the processing

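No paired analysis was possible because each group has 1 library, and for the same reason no library could be left out. Values are given for DP over nasal, nasal over blood and DP over blood neutrophils, in that order; the cause of each shift was not tested. The member medians of 1.00, -0.56 and 0.65 became 1.03, -0.57 and 0.66 with a pseudocount of 0.1 FPKM and 0.90, -0.52 and 0.63 with 5. They were 0.97, -0.55 and 0.62 without a filter, 1.01, -0.55 and 0.67 with a filter of 5 FPKM, 0.99, -0.47 and 0.71 with equal FPKM sums, and 1.01, -0.57 and 0.67 without genes listed at 0. Without the paralogs Rpl3l, Rpl10l, Rpl39l and Rps27l the median of DP over nasal neutrophils was 0.97. For DP over blood neutrophils the median of all tested genes was 0.50 with a pseudocount of 5 FPKM and 0.16 without a filter. Both lay below the member median. Centring on all tested genes gave 0.43, -0.97 and -0.30, the last a reversal, with members 2-fold higher and lower numbering 24 and 3, 3 and 37, and 9 and 18. Upper-quartile scaling gave 0.46, -0.38 and 0.28, with 24 higher and 3 lower in DP over nasal and 6 lower in DP over blood neutrophils. Correction for transcript length gave 0.56, -0.20 and 0.41, with 3 lower in DP over nasal and 7 lower in DP over blood neutrophils. For the counts under centring, scaling and length correction, the shares of all tested genes were not computed.

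Added after seeing the data, correction for coding length gave 0.57, -0.39 and 0.27, with 23 higher in DP over nasal, 13 lower in nasal over blood and 5 lower in DP over blood neutrophils. Members above 400 nt, also added afterwards, gave 0.78, -0.32 and 0.40, with 18 higher and 0 lower in DP over nasal, 9 lower in nasal over blood and 15 higher in DP over blood neutrophils. Without genes listed at 0, 0 were lower in DP over nasal neutrophils. At 4-fold, 14 were higher in DP over nasal, 1 higher and 8 lower in nasal over blood, and 8 higher and 0 lower in DP over blood neutrophils. Without the 100 most abundant other genes, members took 3.74% of the sum in DP, 2.40% in nasal and 3.92% in blood neutrophils, so that blood stood above DP, and without members at 0 in any library the nasal neutrophil share was 1.04%. The other 58 recomputed values are not listed. The depth of the nasal neutrophil library limits low values there most.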

Other observations

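Pseudogene rows of the tables gave values of their own. Rpl34-ps1 stood at 399 FPKM in DP, 53.8 in nasal and 237 in blood neutrophils, above the 36.8, 28.1 and 10.4 FPKM of Rpl34 itself in every library. Rps19-ps3 stood at 27.1, 10.8 and 11.8 FPKM and Rplp2-ps1 at 17.7, 5.60 and 8.04, both far below Rps19 and Rplp2. All 3 rows were lowest in nasal neutrophils. Rps4y2, a row named as a relative of Rps4x, stood at 3.17, 5.87 and 1.48 FPKM. How reads were divided between these rows and their parent genes was not tested.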
